A study of Arabidopsis thaliana with 8 samples.

Results

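The genes described here are 33 loci of Arabidopsis thaliana that carry the cytokinin signal or break the hormone down, of 27444 protein-coding genes on the 5 nuclear chromosomes. They were chosen by name and family, not by any measured value, although earlier results of these data were known. They fall into 5 classes: 3 AHK genes, 6 AHP genes, 7 type B ARR genes, 10 type A ARR genes and 7 CKX genes. Each was followed from 1000 bp upstream of its annotated start to 300 bp past its end, and all 33 could be measured.

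To map nucleosomes with and without nuclear LEAFY (LFY), the study digested chromatin of root explants with micrococcal nuclease (MNase), which cuts DNA that is not wrapped around histones, and sequenced the fragments of nucleosome size. All 4 groups were root explants of the Landsberg erecta background that carried 35S:LFY-GR, a fusion of LFY with a steroid hormone-binding domain under a promoter active in most cells. All had been kept for 5 days on callus-inducing medium, which holds an auxin and kinetin, a cytokinin, so that every group had been exposed to cytokinin and no group without the hormone or without the transgene can be compared. The groups were low MNase digest with a mock treatment of 1 h, low digest with dexamethasone (dex) for 1 h, high digest with mock and high digest with dex, each made as 2 libraries. Dex lets the fusion protein move into the nucleus.

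The 2 libraries of each condition were represented by 1 list of significant nucleosomes, so the spread between replicates is unknown, no comparison between conditions below could be tested, and read depth is unknown. The list named high digest dex carries, in its own name field, the name of a low digest dex library. It is called the list labelled high dex here, and every comparison that uses it rests on that label. The label was kept because the full length of the list is, within 1 nucleosome, the one the study's methods state for high digest dex. The low dex list, by contrast, is longer than the number those methods state for low digest dex. The other lists are called low mock, low dex and high mock, and where 4 values are given without names they follow the order low mock, low dex, high mock and the list labelled high dex. Such lists hold no transcript levels, so the tissue could not be checked against marker genes. The lists held 316733 nucleosomes for low mock, 242336 for low dex, 482098 for high mock and 376240 for the list labelled high dex, and covered 36.2%, 27.9%, 54.4% and 42.7% of the nuclear genome. Most genes hold fewer nucleosomes in a shorter list, so each difference is given beside the same difference over all protein-coding genes, and the values with all lists cut to 242336 nucleosomes, those of highest occupancy, are given where the reading changes.

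Cytokinin is sensed by histidine kinases in membranes, the AHK receptors, which start a phosphorelay. AHP proteins carry the phosphate into the nucleus, where type B ARR proteins bind DNA and switch on target genes. Among those targets are the type A ARR genes, whose products dampen the signal, and CKX enzymes remove the hormone by oxidation. In tissue culture the balance of cytokinin and auxin sets whether callus, shoots or roots form.

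The clearest feature of these genes lay in the bodies of the type A ARR genes, which held fewer listed nucleosomes than most genes in all 4 lists. Coverage, the share of bases that lie in a listed nucleosome of 140 bp, had a median over the 10 type A gene bodies of 25% in low mock, 25.5% in low dex, 63.3% in high mock and 39.4% in the list labelled high dex. The medians over all genes were 50.7%, 37.8%, 70.9% and 59.5%, and 10, 10, 8 and 9 of the 10 type A bodies lay below them. As a mean over the 4 lists, 0 of 10 type A bodies lay above the all-gene median of 55%, whereas 4 of 7 type B, 2 of 3 AHK, 2 of 6 AHP and 3 of 7 CKX bodies did. With the lists cut to equal size, 9, 10, 9 and 10 of the 10 type A bodies lay below the all-gene median.

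**Figure D1:**
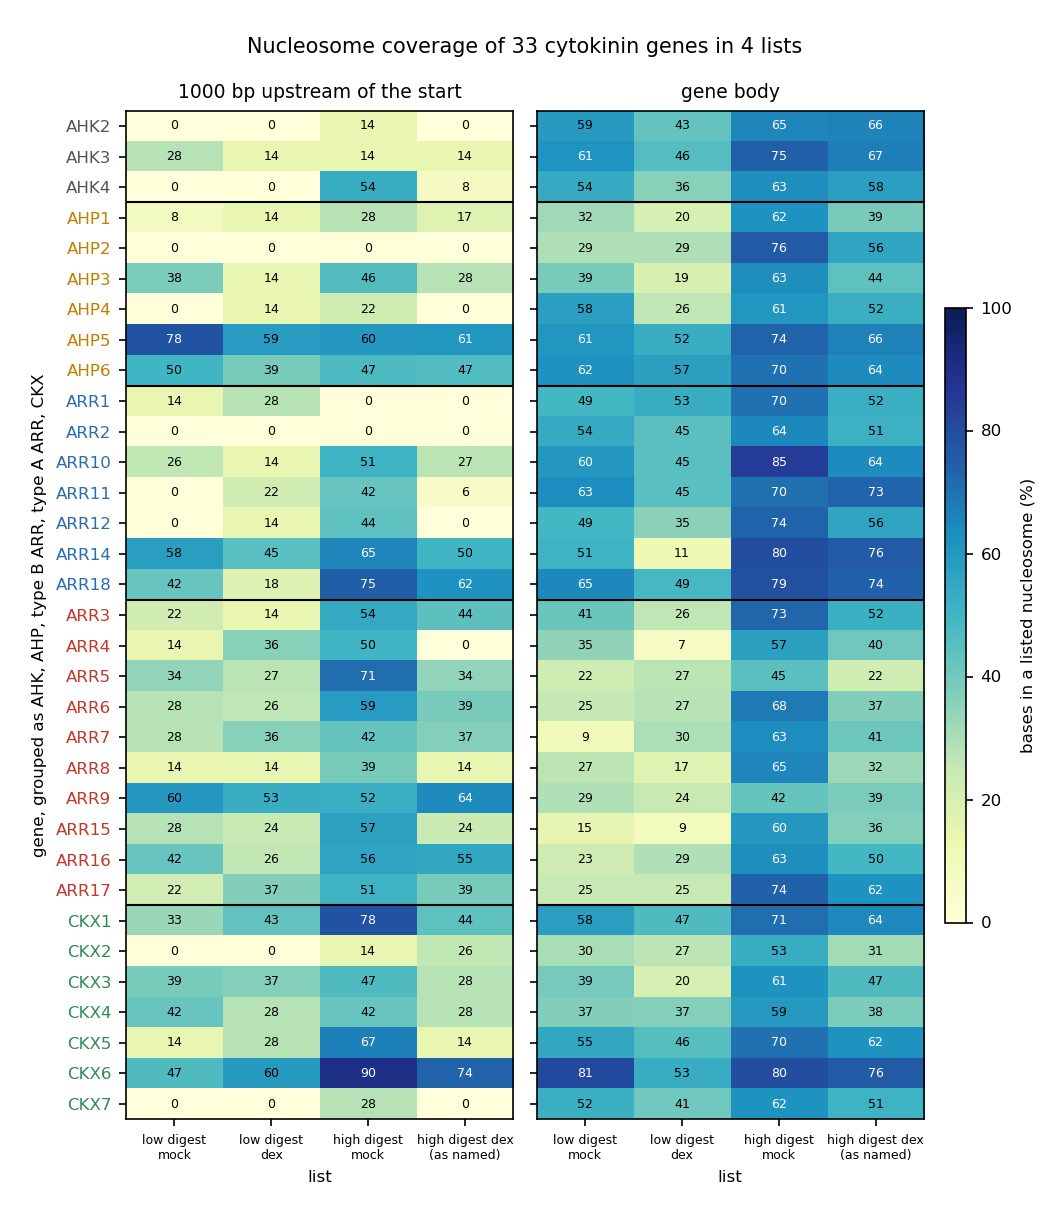
Share of bases in a listed nucleosome (percent, colour and printed value) for each of the 33 genes (rows, grouped by class) in the 4 lists (columns), over the 1000 bp upstream of the start (left) and the gene body (right). Upstream regions of ARR2 and AHP2 are at 0 in every list, and the type A ARR bodies form a pale block in both low digest lists.

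The receptors had sparsely covered regions upstream of the annotated start and well covered bodies. Their median upstream coverage was 0%, 0%, 14% and 7.5%, against 28%, 26.7%, 52.3% and 32% over all genes. AHK3 (AT1G27320) had the highest mean upstream coverage of the 3 over the lists, with 28% in low mock and 14% in each of the other lists. AHK2 (AT5G35750) had 0%, 0%, 14% and 0%, where 14% is the length of a single nucleosome. In AHK2 only 66.7% of the 31-base stretches of this region occur once in the reference, and since the authors kept reads with a single best position, reads from the rest may not have been placed. The part of this in the low coverage was not tested. AHK4 (AT2G01830), the receptor also known as WOL and CRE1, had upstream coverage of 53.5% in high mock and at most 7.5% in the other 3 lists. Counted from the first coding base, the receptor medians upstream were 24.5%, 14%, 38.8% and 32.4%, against 28%, 26%, 53% and 34.5% over all genes. The sparse coverage was thus less marked from that point. Over the receptor bodies coverage ran from 53.8% to 61.1% in low mock and from 63.3% to 74.5% in high mock, around the all-gene medians.

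Among the AHP genes, which pass the phosphate on, upstream coverage ran from 0% at AHP2 to 77.9% at AHP5. AHP5 (AT1G03430) had upstream coverage of 77.9%, 58.9%, 59.9% and 60.9%, and 94.7% of that region belongs to other annotated genes. AHP2 (AT3G29350) had no listed nucleosome in the 1000 bp upstream in any list, and ARR2 (AT4G16110) was the only other gene of the 33 with that property, so that 2 of 33 (6.06%) were empty throughout, beside 3.99% of all genes. The AHP2 region has a GC content of 21.2%, the lowest of the 33, and all of its 31-base stretches are unique. Its 200 bp next to the start, on the minus strand of TAIR10.1 at chr3:11265563-11265762, show the base composition of a stretch without listed nucleosomes and are printed in lower case throughout since they hold no AGATT.
AHP2 upstream: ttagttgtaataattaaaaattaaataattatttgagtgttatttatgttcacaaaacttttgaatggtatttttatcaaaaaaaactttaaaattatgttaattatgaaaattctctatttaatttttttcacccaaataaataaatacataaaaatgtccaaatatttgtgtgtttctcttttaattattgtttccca

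Over its body AHP2 was covered to 29.2% in each low digest list, 75.9% in high mock and 55.7% in the list labelled high dex. AHP3 (AT5G39340) had body coverage of 38.9%, 19.4%, 62.9% and 44% in the same order. Both were thus at least 20 points lower in low than in high digest under both treatments. AHP6 (AT1G80100), which lacks the phosphate-accepting residue and inhibits the relay, had upstream coverage between 39% and 50% and body coverage between 57.4% and 70.2%, the narrowest range of body coverage among the 6. AHP1 (AT3G21510) and AHP4 (AT3G16360) had upstream coverage of at most 28% and 22.5% in any list.

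Type B ARR genes, which encode the DNA-binding activators, had upstream coverage below the all-gene median over 1000 bp and body coverage above it. Their median upstream coverage was 14%, 18%, 44.1% and 5.60%, against 28%, 26.7%, 52.3% and 32% over all genes. Over 500 bp upstream the medians were 28%, 22.8%, 56% and 0%, against 28%, 27%, 48% and 28%, so the lower level did not hold there in low mock and was turned in high mock. In lists of equal size the 1000 bp median in high mock was 18.1%, against 14%. Their body medians were 53.8%, 45.1%, 73.7% and 63.9%, above the all-gene median in all 4 lists. ARR1 (AT3G16857), ARR10 (AT4G31920), ARR12 (AT2G25180), ARR11 (AT1G67710), ARR14 (AT2G01760) and ARR18 (AT5G58080) are, with ARR2, the type B genes among the 33. ARR14 had the highest mean upstream coverage over the 4 lists, with 58%, 45%, 65% and 50%, and 97.1% of its upstream region lies in MAP70-3, a neighbouring gene. In ARR2 the upstream region was at 0% in every list, while its body was covered to 53.8%, 44.8%, 64.5% and 51.5%. Only 64.5% of the 31-base stretches upstream of ARR2 are unique, so part of that emptiness cannot be told apart from unplaced reads.

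Of the type B genes, ARR18 was lower upstream in low than in high digest under both treatments, with 42% in low mock, 18% in low dex, 74.8% in high mock and 61.8% in the list labelled high dex. ARR14 and ARR12 showed the same over their bodies. ARR14 had body coverage of 51%, 11.3%, 79.6% and 75.8% in that order, the low dex value being the lowest of any type B gene. The ARR12 body had 49.5%, 35.2%, 73.7% and 55.9%. ARR1 was unlike the rest upstream, with 14% and 28% in the low digest lists and 0% in both high digest lists. The ARR10 body, at 85% in high mock, was the best covered of all 33 genes in that list.

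Upstream coverage followed the annotation and base composition of the region. Over the 20 genes with no other gene in the 1000 bp upstream, median coverage was 14%, 16%, 42.2% and 10.8%, and the same 4 medians over all 11248 such genes were 14%, 14%, 40.9% and 17.6%. Over the 6 genes with more than 50% of the region inside another gene they were 42.5%, 44%, 62.5% and 47%. Across the 33 genes, Spearman's rho between upstream GC content and mean upstream coverage was 0.867, and across all genes it was 0.782. Both are descriptions across genes that share the same 4 lists, and genes are not independent replicates. The classes thus differ in neighbouring genes and composition as well as in function, and the part of these in the differences was not tested.

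The 10 type A ARR genes are ARR3 (AT1G59940), ARR4 (AT1G10470), ARR5 (AT3G48100), ARR6 (AT5G62920), ARR7 (AT1G19050), ARR8 (AT2G41310, named RR3 in RefSeq), ARR9 (AT3G57040), ARR15 (AT1G74890), ARR16 (AT2G40670) and ARR17 (AT3G56380). Over 1000 bp their upstream regions resembled those of other genes, with medians of 28%, 26.8%, 53.2% and 37.8%. As a mean over the 4 lists ARR9 had the most, with 60%, 53%, 52.3% and 64%, and ARR8 the least, with 14%, 14%, 39% and 14%. The other 8 lay between 14% and 42% in low mock and between 42.3% and 70.9% in high mock. Over 500 bp the type A medians were 18.6%, 18.2%, 46.8% and 30.8%, against 28%, 27%, 48% and 28% over all genes. Without bases of other genes they were 21.2%, 22.8%, 46.9% and 32.9%, against 15.6%, 15.2%, 41.4% and 20.7%, so the likeness depended on the window. The clearer difference from other genes lay downstream of the start.

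In low mock the lowest body coverage of all 33 genes was that of ARR7, at 9.45%, followed by ARR15 at 14.8%. ARR7 had 29.6% in low dex, 63.4% in high mock and 41.4% in the list labelled high dex, and ARR15 had 8.87%, 60.4% and 36.4%. ARR17, the shortest of the class, had 24.7% in each low digest list, 74.1% in high mock and 61.7% in the list labelled high dex. The ARR16 body was covered to 22.9%, 28.7%, 63.2% and 49.6%. The order of these 4 genes differed between lists, and each was below 30% in both low digest lists.

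ARR3 had the highest mean body coverage of the type A genes, with 41.4%, 26.3%, 72.8% and 52% over its body. Its upstream region had 22.2%, 14%, 54% and 44.2%, and with ARR18 it was 1 of 2 genes with lower upstream coverage in low digest under both treatments (11% of all genes did so). ARR4 had body coverage of 34.6%, 6.70%, 57.3% and 40.2%, the low dex value being the lowest of all 33 genes in that list. ARR5, ARR6, ARR8 and ARR9 had between 22.4% and 28.8% in low mock and between 42.5% and 68.1% in high mock.

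**Figure D2:**
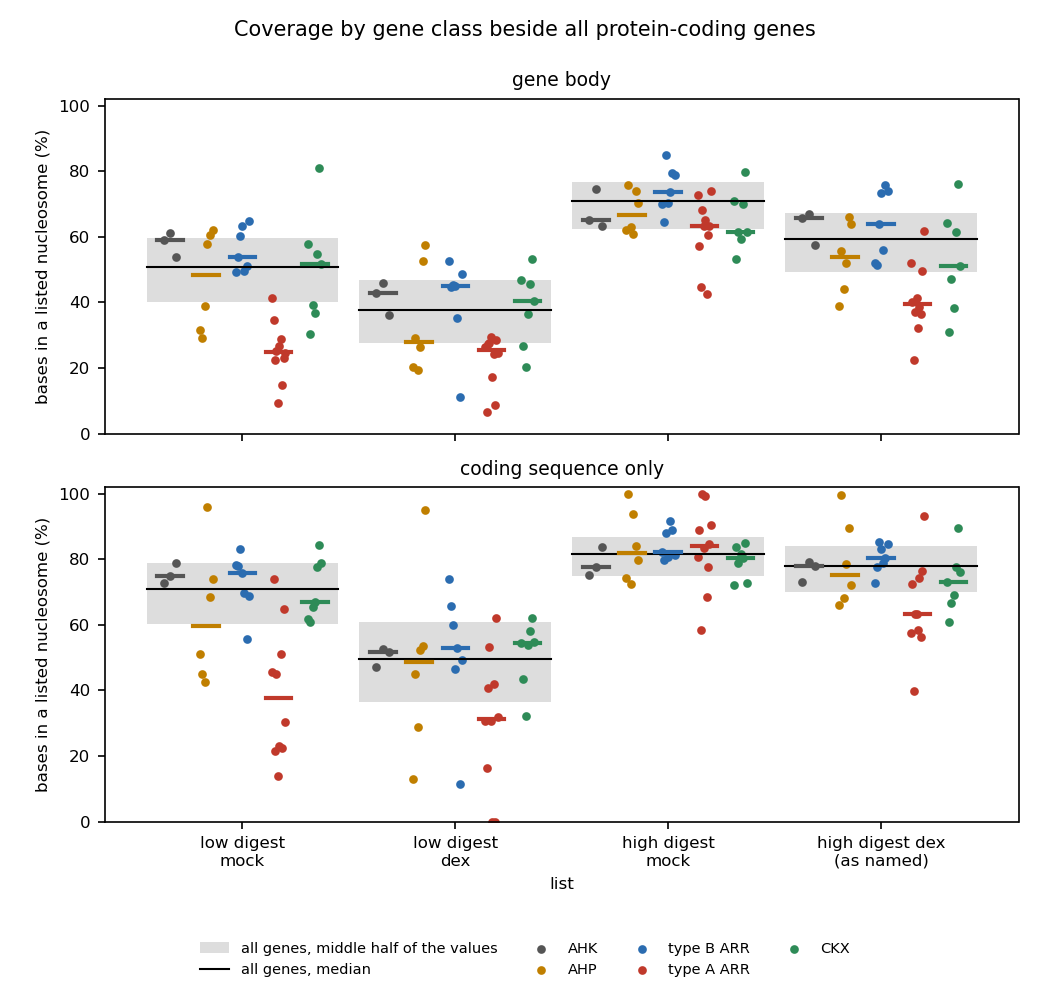
Share of bases in a listed nucleosome (percent) over the gene body (top) and over coding bases only (bottom), by list, with a point per gene and a short bar at each class median, and with the all-gene median (black line) and quartiles (grey box) behind. In low mock the 10 type A ARR bodies lie between 9.45% and 41.4%, and over coding bases their median reaches 84.2% in high mock.

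Length and composition of the type A genes were measured beside this. They run from 1134 to 3041 bp, their median body GC content is 35.4% (38.9% over all genes), and coding bases make up a median of 32.2% of the gene (51.8% over all genes). Among the 4134 genes that lie within the range of the type A genes in length, body GC content, coding GC content and coding share together, a comparison chosen after the values were seen, median body coverage was 42.3%, 32.7%, 68.2% and 52.9%. Of the 10 type A genes, 10, 10, 8 and 9 lay below those medians. The 4134 genes were bounded by the lowest and highest type A values and were not matched to single genes. Spearman's rho between body GC content and mean body coverage was 0.767 across the 33 genes and 0.582 across all genes. For coding share it was 0.699 and 0.374. The part of composition in the low type A coverage was not tested.

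Coding sequence was then measured alone. Over coding bases the type A median was 37.7% in low mock, 31.2% in low dex, 84.2% in high mock and 63.3% in the list labelled high dex, and over all genes it was 70.9%, 49.5%, 81.5% and 77.9%. In high mock type A coding sequence was thus covered like that of other genes, with 4 of 10 below the all-gene median, whereas in low mock 9 of 10 were below. Of the 49 coding exons of at least 50 bp in the type A genes, 26 (53.1%, Wilson 95% interval 39.4% to 66.3%) held no listed base in low mock, beside 15% of exons over all genes. In high mock 3 of the 49 (6.12%, 2.10% to 16.5%) were bare, beside 3.98%. For low dex the figures were 59.2% and 30.1%, and for the list labelled high dex 26.5% and 8.03%. With lists of equal size, an alternative chosen after the values were seen, the contrast between the digests was mostly gone. The type A coding medians were then 22%, 31.2%, 29.3% and 35.9%, beside 58%, 49.5%, 58.3% and 64.1% over all genes, and 9, 8, 8 and 10 of 10 were below. Bare exons made up 67.3%, 59.2%, 55.1% and 63.3% of the 49, beside 26.4%, 30.1%, 22.8% and 23.5% over all genes. Low coverage of type A coding sequence relative to all genes was thus seen in each list at equal size, whereas the near normal coverage in high mock was seen only in the full list. Intervals here and below cover counting error only, and exons of a gene are not independent.

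ARR7 and ARR15, a pair of closely related genes, had the same pattern at the same place. The coding exons numbered 3 of both genes, at chr1:6578427-6578504 and chr1:28132120-28132197 on the minus strand, are each 78 bp long and share 67 of 78 bases (85.9%). Each was covered to 100% in high mock and to 0% in the other 3 lists. The nucleosome that covered it was centred 853 bp downstream of the start in ARR7 and 884 bp in ARR15, and neither was found in any other list. Both rank low in their list, since 19.5% and 16.7% of nuclear nucleosomes in high mock had a lower occupancy, and neither is in that list once it is cut to equal size. The bases under these nucleosomes, chr1:6578392-6578531 and chr1:28132072-28132211, are shown because they carry this difference, on the minus strand of TAIR10.1 with coding bases in capitals. These genes were picked after their values were seen.
ARR7 nucleosome: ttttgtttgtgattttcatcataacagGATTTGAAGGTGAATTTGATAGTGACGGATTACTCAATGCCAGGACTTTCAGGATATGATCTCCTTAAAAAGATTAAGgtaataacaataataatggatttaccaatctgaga
ARR15 nucleosome: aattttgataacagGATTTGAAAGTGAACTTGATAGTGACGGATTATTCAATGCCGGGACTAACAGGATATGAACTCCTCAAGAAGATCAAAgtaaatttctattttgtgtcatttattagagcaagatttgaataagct

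Upstream of ARR7 a single position recurred. A nucleosome centred at -167 bp, counted from the start, was listed at that position in all 4 lists, with 56.6% of nuclear nucleosomes below it in low mock, 98.3% in low dex, 21.4% in high mock and 45% in the list labelled high dex. These ranks are within lists of unequal length and are not compared between them. It lies at chr1:6579412-6579551, and its sequence on the minus strand, where ARR7 is transcribed, is printed with capitals at AATCT, the reverse complement of AGATT, the core bases that type B ARR proteins prefer.
ARR7 upstream nucleosome: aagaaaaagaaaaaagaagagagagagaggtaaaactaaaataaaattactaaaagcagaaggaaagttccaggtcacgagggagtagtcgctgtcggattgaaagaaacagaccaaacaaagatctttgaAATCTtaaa

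**Figure D3:**
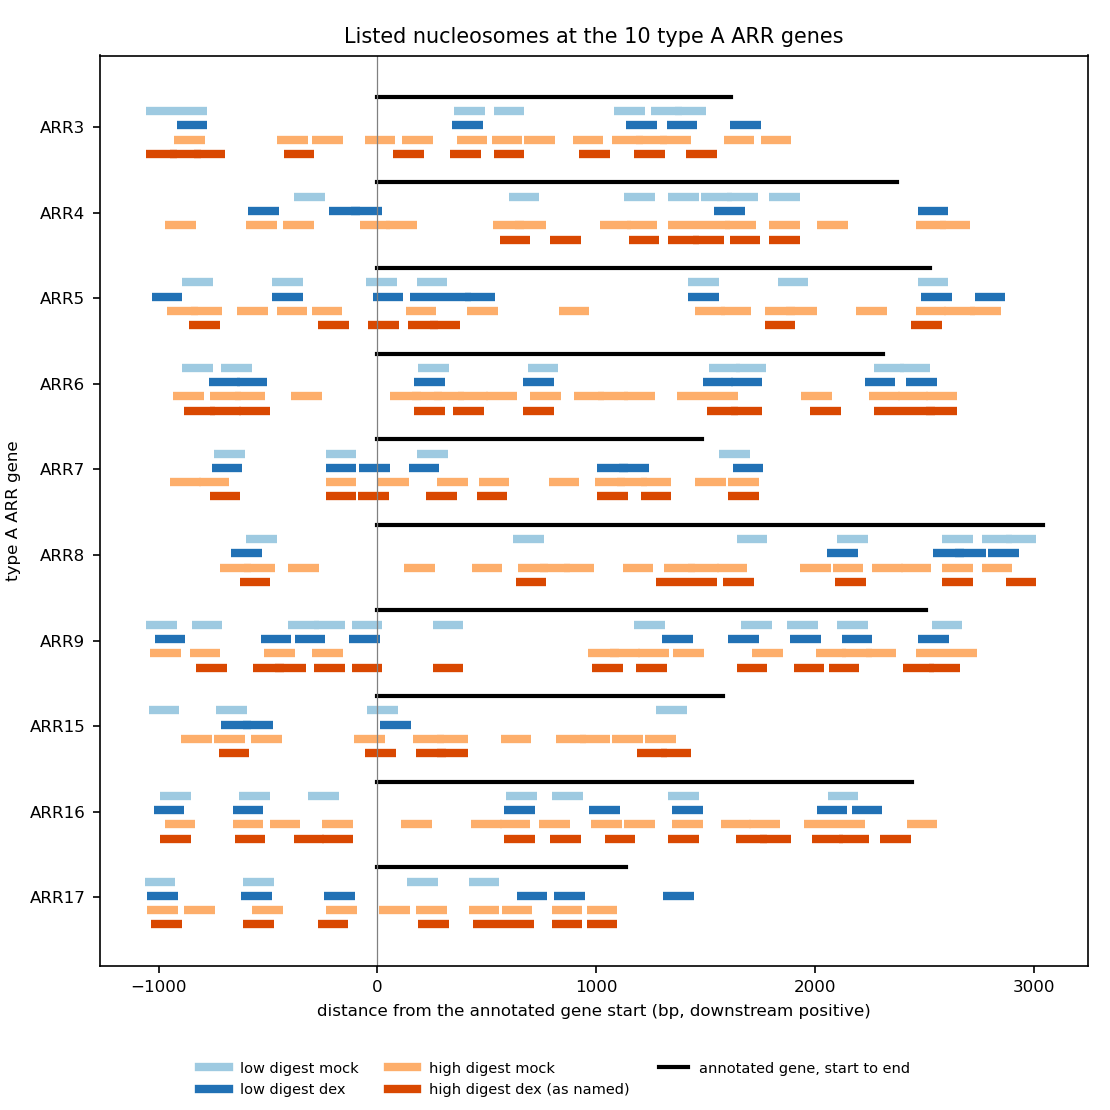
Listed nucleosomes of 140 bp (coloured bars, 1 row per list) at the 10 type A ARR genes, by distance from the annotated start in bp, with the gene drawn as a black line from start to end. High digest mock has bars along most gene bodies, and at each of the 10 genes both low digest lists leave most of the body without bars.

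The CKX genes, whose products degrade cytokinin, held both the best covered gene of the 33 and some of the emptiest upstream regions. CKX6 (AT3G63440) had upstream coverage of 47%, 59.5%, 90% and 73.5% and body coverage of 81.1%, 53.4%, 79.6% and 76.1%. Its whole upstream region is annotated as part of a long non-coding RNA on the opposite strand. CKX7 (AT5G21482), the family member known to act in the cytosol, had upstream coverage of 0%, 0%, 28% and 0%. CKX2 (AT2G19500) had 0%, 0%, 14% and 26%, although its upstream region also lies wholly in annotated non-coding RNA. CKX3 (AT5G56970) had body coverage of 39.1%, 20.3%, 61.4% and 47%, at least 20 points lower in low than in high digest under both treatments, and upstream coverage of 39%, 36.6%, 47.1% and 28%. CKX1 (AT2G41510), CKX4 (AT4G29740) and CKX5 (AT1G75450) had body coverage between 36.6% and 71% in every list.

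The next comparison asks whether dex, and thus nuclear LFY, went with a different coverage at these genes. A gene was called when its coverage differed by at least 20 percentage points between lists. For low digest dex only, the authors pooled the replicates before nucleosomes were called. Comparisons with low dex thus set lists called in different ways side by side, and the part of this in the differences was not tested. Upstream at low digest, 2 of 33 genes were called lower with dex (12.7% of all genes) and 2 of 33 higher (4.68% of all genes). The 2 lower ones were ARR18 and AHP3, each by 24 points, and the 2 higher ones ARR4 and ARR11, by 22.1 and 22 points. Upstream at high digest, 12 of 33 were called lower with dex (35% of all genes) and 0 higher (0.652%). The largest of these were at CKX5, a fall from 66.6% to 14%, at ARR4, from 50.1% to 0%, at AHK4, from 53.5% to 7.5%, and at ARR12, from 44.1% to 0%. The median difference over the 33 genes was 0 at low digest and -15 points at high digest, and over all genes it was 0 and -14 points. At high digest the share of genes called was near the background. At equal list size the calls were 0 lower and 4 higher at low digest (4.74% and 9.94% of all genes) and 1 lower and 0 higher at high digest (8.63% and 4.62%), so nearly all of the high digest calls were lost.

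Over gene bodies, 4 of 33 were called lower with dex at low digest (24.6% of all genes) and 1 higher (1.05%). The 4 lower genes were ARR14, AHP4, ARR4 and CKX6 and the higher one was ARR7. At high digest 11 were called lower (17.4%) and 0 higher (0.758%). Of these 11, 6 were type A ARR genes (ARR3, ARR5, ARR6, ARR7, ARR8 and ARR15), and the others were ARR10, AHP1, AHP2, CKX2 and CKX4. For the type A class the median difference was -21.4 points at high digest and -2.27 points at low digest, beside -9.90 and -11.4 points over all genes. Over the 4134 genes within their range of length and composition it was -14 and -9.19 points. No gene of the 33 was called in the same direction at both digests, upstream or over the body, and 2.47% and 2.85% of all genes were called lower at both. At equal list size the calls at high digest fell from 11 lower to 2 lower and 1 higher (5.15% and 8.27% of all genes), and at low digest they were 1 lower and 3 higher (7.07% and 4.24%). The type A median was then -3.99 points at high digest and 9.84 points at low digest, beside 0 and -0.19 points over all genes. In that setting 8 of 10 type A bodies lay below the all-gene median difference at high digest and 3 of 10 at low digest. Over coding bases the type A medians were 2.07 and 15.5 points, beside 2.94 and -6.08 points.

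**Figure D4:**
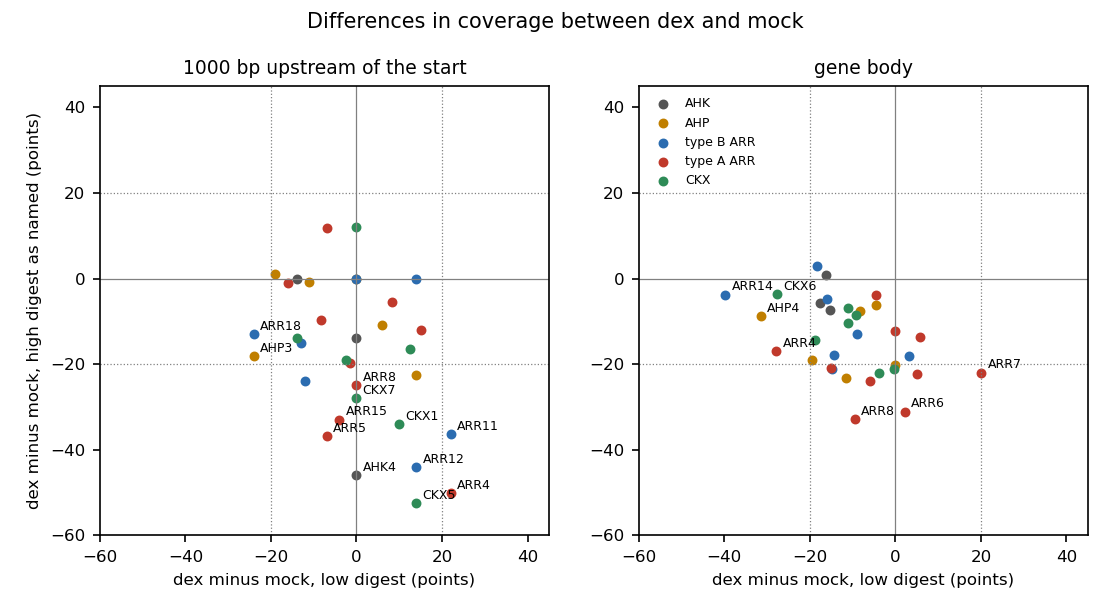
Difference in coverage between dex and mock (percentage points) at low digest (horizontal) and high digest as named (vertical), upstream (left) and over the body (right), with a point per gene coloured by class and dotted lines at 20 points. No point lies beyond the dotted lines in the same direction on both axes, and ARR4 and ARR11 upstream and ARR7 over the body lie beyond them in opposite directions.

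Upstream of ARR4 and ARR11 the calls went in opposite directions at the 2 digests. Upstream of ARR4, coverage was 14% in low mock and 36.1% in low dex, but 50.1% in high mock and 0% in the list labelled high dex. Upstream of ARR11 it was 0%, 22%, 42% and 5.60%. At ARR11 a nucleosome centred at -44 bp was listed in low dex and in high mock and in neither of the others. Calls in opposite directions were made upstream for 2 of 33 genes (6.06%) and for 3.08% of all genes. Over the body ARR7 was the only such gene of the 33 (3.03%), beside 0.77% of all genes. Once lists were cut to equal size, the high digest difference was -14 points at ARR4 and -19.6 points at ARR11, below the threshold. No opposite call upstream was then left among the 33 genes, beside 3.08% of all genes. At ARR7 the body differences were then 20.1 and -25.6 points, and ARR17 was called in opposite directions as well. These 2 of 33 bodies stood beside 2.51% of all genes in that setting.

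The comparison of the digests asks how coverage depended on the strength of digestion. Upstream, with mock, 18 of 33 genes were called lower in low than in high digest (47.6% of all genes) and 0 higher (0.423%). With dex 4 were called lower (22.5%), namely ARR18, ARR3, ARR16 and CKX2, and 2 higher (2.93%), namely ARR1 and ARR4. Over bodies, with mock, 19 were called lower (43.5%) and 0 higher (0.412%), and with dex 17 lower (48.8%) and 0 higher (0.463%). Type A ARR genes made up 9 of the 19, every member but ARR9, and their median difference was -39.4 points, beside -18 points over all genes and -24.4 points over the 4134 genes within their range of length and composition. Over coding bases it was -46.1 points, beside -9.34 and -15.1 points, and -7.23 points beside 0 over all genes with lists of equal size. Once lists were cut to equal size, the counts over bodies were 4 lower and 4 higher with mock (9.65% and 7.54% of all genes) and 1 lower and 1 higher with dex (12.6% and 4.1%), and upstream 1 lower and 3 higher with mock (7.91% and 10.5%) and 0 lower and 7 higher with dex (4.86% and 18.7%). The type A body median with mock was then -1.32 points and that of all genes -0.53 points, so the class median stood apart only in the full lists. Single type A bodies then ran from -61.7 points at ARR17 to 22.8 points at ARR4. The part of list length in this difference was not tested.

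Under both treatments 10 of 33 bodies were called lower in low digest (22.4% of all genes), namely ARR12, ARR14, ARR3, ARR4, ARR15, ARR16, ARR17, AHP2, AHP3 and CKX3. Of these 10, 5 are type A ARR genes. Under equal list size 0 of 33 were called lower under both treatments (1.77% of all genes). The sign then turned with mock at ARR4 and CKX3, with dex at ARR15 and ARR16, and under both treatments at ARR3. Digest strength and list length cannot be told apart in this comparison, because each high digest list is longer than the low digest list of the same treatment.

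Nucleosomes of the 33 genes were then looked up in another list, counting one as found again when at least 50% of its bases lay in nucleosomes there. Of 604 nucleosomes of high mock at the 33 genes, 61.8% were found in low mock and 70.2% in the list labelled high dex, beside 64.3% and 75.2% at all genes. At the type A ARR genes the shares were lower. There 62 of 146 (42.5%, Wilson 95% interval 34.7% to 50.6%) were found in low mock and 81 of 146 (55.5%, 47.4% to 63.3%) in the list labelled high dex. At the AHK genes they were 77% and 84%. In the opposite direction, 92.1% of low mock nucleosomes at the 33 genes were found in high mock, beside 92.9% at all genes.

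Of the 146 nucleosomes of high mock at type A genes, 46 (31.5%) were found in no other list, and 30 (20.6%) in all others. At all genes the shares were 16.3% and 38.2%, and at type B ARR genes 10.5% and 40.6%. With lists of equal size, 27 of 54 (50%, 37.1% to 62.9%) of the type A nucleosomes of high mock were found in low mock, beside 69.3% at all genes.

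Occupancy was compared as the rank of a nucleosome within its own list. The median body nucleosome of these genes stood above 47.8%, 26.9%, 35.8% and 32.5% of its list, and that of all 33 genes above 52.5%, 45%, 50.2% and 54.4%. At type B genes the figures were 45.9%, 26.9%, 64% and 66.7%, so the type A genes ranked below them in the high digest lists and about level with them in low mock. In low dex the same few ranks recurred across classes, and 26.9% was the AHK median as well. The equal values there are thus too coarse to be read as a like rank.

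**Figure D5:**
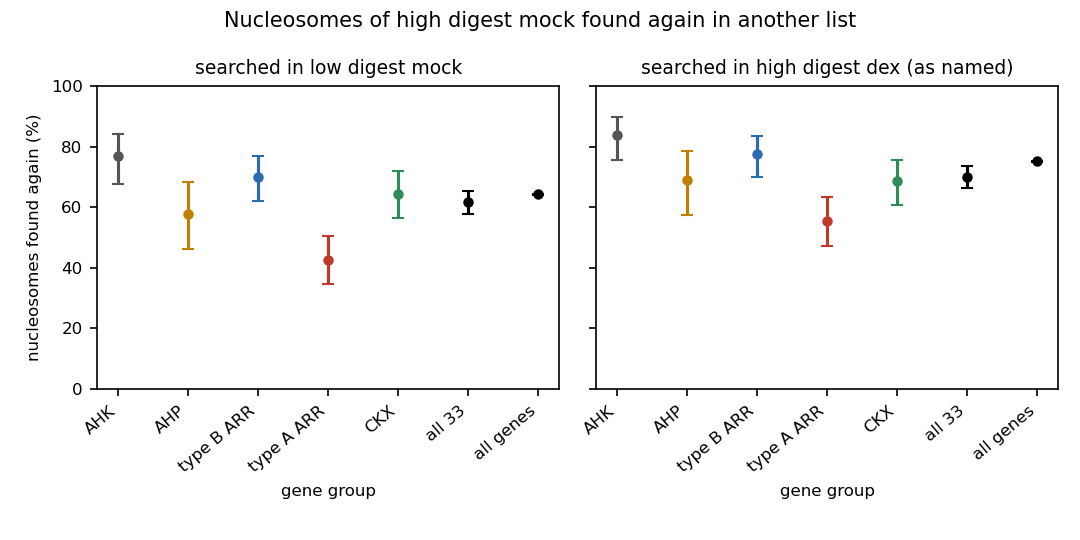
Percent of the high mock nucleosomes of each gene class, of all 33 genes and of all protein-coding genes that were found again in low mock (left) and in the list labelled high dex (right), with Wilson 95% intervals as bars. The type A ARR genes are lowest in both panels, at 42.5% and 55.5%.

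Near the start, the first listed nucleosome with its centre within 400 bp downstream lay at a median of 201, 220.5, 151 and 214.5 bp, with such a nucleosome present at 25, 20, 32 and 28 of the 33 genes. Over all genes the medians were 136, 153, 122 and 134 bp. The start itself lay in a listed nucleosome at 21.2%, 24.2%, 30.3% and 30.3% of the 33 genes, beside 32.7%, 27.3%, 40.1% and 32.8% of all genes. Among genes with a listed nucleosome within 400 bp downstream, the median first nucleosome of the 33 was therefore farther from the annotated start in each list. At 150 bp past the start, 33.3%, 27.3%, 69.7% and 45.5% of the 33 genes were covered, beside 50.3%, 35.1%, 68.8% and 61.5% of all genes.

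LFY recognises sequences with the core CCANTGG, and the core is shown at these genes because LFY is the factor that dex brings into the nucleus. The 7 letters, on either strand of a palindrome, were found in the 1000 bp upstream of 5 of 33 genes (15.2%), beside 12.3% of all genes. The 5 matches are printed 5′ to 3′ on the strand of the gene with the core in capitals. They lie at chr4:9112043-9112071 in intergenic DNA for ARR2, chr2:332621-332649 in an untranslated exon of AT2G01750 and coding sequence of AT2G01755 for ARR14, chr2:16969093-16969121 in an untranslated exon of AT2G40660 for ARR16, chr5:23048685-23048713 in intergenic DNA for CKX3 and chr3:23423206-23423234 in a long non-coding RNA for CKX6, where CKX3 alone is on the minus strand.
ARR2: attattaaatgCCAGTGGcagccgctgta
ARR14: tcttctctccgCCACTGGagggacggtga
ARR16: gtgcaagtccaCCATTGGattgcaacgta
CKX3: aaagtttgaaaCCAGTGGtttgctaatta
CKX6: gtgcacaatctCCACTGGgccaccttttg

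The centres of the cores of ARR16, at -566 bp, and CKX6, at -937 bp, lay in a listed nucleosome in all 4 lists, and that of ARR2, at -629 bp, in none. The ARR14 core, at -267 bp, was covered in low mock, low dex and the list labelled high dex but not in high mock. The CKX3 core, at -407 bp, was covered in all lists but low dex. At CKX3 every list held a nucleosome just upstream of the core, centred at -479 bp in both low digest lists and at -469 bp in both high digest lists, and in low dex the core lay just past its edge. A further nucleosome, centred at -369 bp in low mock and -359 bp in high mock, was in neither dex list, and 0.72% and 23% of nuclear nucleosomes in those lists had a lower occupancy. In all, 4, 3, 3 and 4 of the 5 cores were covered in the 4 lists, beside 50.5%, 41.9%, 63.6% and 54.3% of the 3719 matches upstream of all genes. With 5 matches these counts are too few to set apart from those shares.

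AGATT, the core preferred by type B ARR proteins, was present on either strand upstream of 32 of 33 genes (97%), beside 98.2% of all genes, with a median of 4 matches in each set and of 5.5 in the type A genes. Of the 145 matches, 24.8%, 20%, 42.1% and 25.5% lay in listed nucleosomes, beside 24.1%, 20.8%, 46.6% and 30.2% of matches over all genes. A match of these letters is no evidence of binding.

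The other genes of the pathway gave a reference outside the 33. The list held 24 genes, namely 11 for cytokinin synthesis (IPT and CYP735A), 7 LOG genes for the activating step and 6 CRF response factors. Their median body coverage was 50.4%, 36.3%, 68.5% and 54.6%, nearer to the all-gene medians than that of the 33, which was 49.3%, 29.6%, 65.1% and 52%. As a mean over lists, 8 of 11 synthesis genes lay above the all-gene body median, and 0 of 7 LOG genes did. Median body coverage of the LOG genes was 35.9%, 26.9%, 65.6% and 37.6%. Their median body difference, dex minus mock, was -24 points at high digest and -7.66 points at low digest, beside -21.4 and -2.27 points for the type A genes. Low minus high digest, it was -31 points with mock and -15.3 points with dex, beside -39.4 and -18 points for the type A genes. Of the 24, 11 bodies were called lower in low than in high digest with mock (43.5% of all genes) and 10 with dex (48.8%). Between dex and mock, 7 bodies were called lower with dex at low digest (24.6%) and 9 at high digest (17.4%). In the same order, 0 were called higher in any of these (0.412%, 0.463%, 1.05% and 0.758% of all genes). Upstream, 1 was called lower (12.7%) and 1 higher (4.68%) with dex at low digest, 8 lower (35%) and 0 higher (0.652%) at high digest. Low minus high digest, the upstream counts were 9 lower (47.6%) and 0 higher (0.423%) with mock, and 3 lower (22.5%) and 1 higher (2.93%) with dex.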

How the data were processed

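Micrococcal nuclease sequencing libraries (8, 2 per condition) of root explants were represented by 4 deposited lists, 1 per condition. Per the study's methods and the labels, the authors mapped read pairs to TAIR10 with Bowtie 1.2.2, keeping single best positions, used Picard 2.9.4, as the processing notes state, and called nucleosomes with DANPOS, pooling the low digest dex replicates before the call. Each line is an interval of 140 bp with the occupancy signal the authors' caller gave. That signal was used only to rank nucleosomes within a list, because its scaling between lists is not stated. No reads per nucleosome are given, so depth is unknown and the lists cannot show a replicate error.

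Starts in the lists were taken to begin at 0 and positions are given from 1. Gene models and sequences came from RefSeq on TAIR10.1, whose nuclear chromosomes equal those of TAIR10, and Landsberg erecta reads had been placed on this Columbia reference. Coverage was the percent of bases in a listed interval, over the 1000 bp upstream of the annotated start or over the gene. A nucleosome belonged to a gene when its centre lay from 1000 bp upstream to 300 bp past the end, and a difference of at least 20 points was called. With 1 list per condition, nothing was tested. Shares carry Wilson 95% intervals. Functions were tested on simulated data, with python 3.11.15, numpy 2.4.6, scipy 1.17.1 and matplotlib 3.10.9.

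Members and lists were chosen with earlier results of these data known. Every member is named. Values in all lists are given for the member of each class with the highest and the lowest mean upstream coverage, for those called in the same direction at both digests or treatments, and for those with a CCANTGG upstream. ARR1, ARR4, ARR7, ARR11 and others beyond these were added after their values were seen. Alternatives were lists of equal size (242336 nucleosomes, highest occupancy kept), an upstream region of 500 bp, the first coding base as start, upstream bases outside other genes, coding bases only, a threshold of 30 points, and an overlap of 80% or of 1 bp.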

Additional observations from a re-analysis of the deposited data

Results flagged for a closer look

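Coverage differed in opposite directions between dex and mock at low and at high digest for 3 of the measured regions. Each side is a single pair of lists, so the difference between digests was not tested, and the high digest value rests on the list labelled high dex. The low digest value uses low dex, the only list whose replicates were pooled before nucleosomes were called.

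Upstream of ARR11, which encodes a type B activator, dex minus mock was 22 points at low digest and -36.4 points at high digest. Upstream of ARR4, a type A gene, it was 22.1 and -50.1 points. With lists of equal size the high digest differences were -19.6 points at ARR11 and -14 points at ARR4, so the opposite calls were lost at both. Over the body of ARR7, another type A gene, it was 20.1 and -22 points, and 20.1 and -25.6 points with lists of equal size. Opposite calls of this size were seen upstream at 3.08% and over the body at 0.77% of all protein-coding genes. With lists of equal size these shares were 3.08% and 2.51%.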

How the results depend on the processing

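No paired analysis was possible because each list combines the replicates of its condition, and for the same reason no replicate could be left out. Under the alternatives, 39 values of the main comparisons stayed close to the value reported and 81 moved. By count, lists of equal size moved the most of these values, with 31 moved and 5 close to the value reported. Each of the overlap alternatives moved all 8 of its values. How far depth set the length of the lists was not tested. The genes within the range of the type A genes, and type A coverage over coding bases with lists of equal size, were added after seeing the data.

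With lists of equal size, median upstream coverage was 14% in low mock and in high mock and 10.8% in the list labelled high dex, and median body coverage was 35.03%, 35.02% and 36.53%. The type A body medians were 15.24%, 20.43% and 16.24%. Upstream, the genes called lower and higher were then 0 and 4 for dex minus mock at low digest (4.74% and 9.94% of all genes), 1 lower at high digest (8.63%), 1 and 3 for low minus high digest with mock (7.91% and 10.5%), and 0 and 7 with dex (4.86% and 18.7%). Over bodies they were 1 and 3 (7.07% and 4.24%), 2 and 1 (5.15% and 8.27%), 4 and 4 (9.65% and 7.54%), and 1 and 1 (12.6% and 4.1%). Shares of nucleosomes found again became 68.84% for high mock in low mock, 75.34% for high mock in the list labelled high dex, 72.04% for that list in high mock, 64.47% for it in low dex, 62.35% for low dex in it, 67.59% for low dex in low mock and 65.06% for low mock in high mock.

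Of the 92 differences of at least 20 points at single genes, the sign turned at 20, all with lists of equal size. Over all 264 differences measured at the 33 genes, of any size, that setting turned the sign at 73. Over bodies with mock, low minus high digest became 11.45 points at AHP1, 13.94 at ARR1, 15.15 at ARR3, 22.76 at ARR4, 8.221 at ARR8, 8.249 at CKX2, 18.82 at CKX3 and 2.814 at CKX4. With dex it became 3.547 points at ARR15, 0.8193 at ARR16 and 0.3092 at ARR3. Upstream with mock it became 4.2 points at AHP1, 3.8 at ARR10, 9 at ARR5 and 13 at ARR17. Dex minus mock at high digest became 6.737 points at AHP1, 4.604 at ARR8 and 3.752 at CKX4 over bodies, and 8.1 at ARR5 and 1 at CKX1 upstream.

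When any shared base counted, the shares found again were 97.54% for the list labelled high dex in high mock, 71.88% for it in low dex, 80.46% for high mock in it, 71.69% for high mock in low mock, 91.98% for low dex in it, 89.51% for low dex in low mock, 96.53% for low mock in high mock and 77.67% for low mock in low dex. When 80% of bases had to be shared they were, in the same order, 66.96%, 35.49%, 47.19%, 39.24%, 53.4%, 50.62%, 64.52% and 40.94%. With a threshold of 30 points, 0 genes were called lower and 0 higher upstream for dex minus mock at low digest (4.54% and 1.01% of all genes), 11 lower for low minus high digest with mock (26.5%), and 2 lower and 1 higher with dex (10.1% and 0.53%). Over bodies 2 were lower and 0 higher for dex minus mock at low digest (8.80% and 0.34%), 2 lower at high digest (4.35%), 9 lower for low minus high digest with mock (17.4%) and 3 with dex (22.3%).

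Over coding bases only, the medians were 66.86%, 49.32%, 81.71% and 74.18% in low mock, low dex, high mock and the list labelled high dex, and the type A medians 37.73% in low mock, 84.16% in high mock and 63.28% in the list labelled high dex. There 14 genes were called lower for dex minus mock at low digest (47.5% of all genes), 6 at high digest (7.52%), and 1 higher for low minus high digest with dex (0.77%). From the first coding base, 4 genes were lower and 0 higher upstream for dex minus mock at low digest (13.8% and 4.29%), and 1 and 0 were higher for low minus high digest with mock and with dex (0.61% and 2.48%). Over 500 bp the upstream median was 20.2% in the list labelled high dex, 5 genes were lower and 8 higher for dex minus mock at low digest (17.7% and 12.7%), 1 higher at high digest (4.52%), and 4 and 8 higher for low minus high digest with mock and with dex (4.56% and 10.6%). Without bases of other genes, which left 28 genes, the upstream medians were 14% in low mock, 16.9% in low dex and 16.5% in the list labelled high dex, and 1 gene was higher for dex minus mock at high digest (3.35%).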
